A study of Mus musculus with 12 samples.

Results

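Branched-chain amino acid catabolism was followed through 10 genes, Bcat2, Bckdha, Bckdhb, Dbt, Bckdk, Ivd, Mccc1, Mccc2, Pcca and Pccb. They were taken by name from a raw count table of 19792 genes, and all 10 were present and passed the filter on low counts that left 16352 genes for testing. RNA had been sequenced from whole gonadal white adipose tissue (gWAT) in 12 libraries from male mice, with 3 libraries in each of 4 groups. WT mice carried Gja1 floxed alleles without CreER, and KO mice carried the same floxed alleles with Csf1r creER, which deletes Gja1, the gene of the gap junction protein connexin 43 (Cx43), in macrophages and other cells in which the Csf1r promoter is active. Mice of both genotypes were kept on chow (NCD) or put on a high-fat diet (HFD) at the age of 6 weeks, in both cases for 8 weeks, and the strain label was C57BL/6 in all groups. The groups are named WT-NCD, WT-HFD, KO-NCD and KO-HFD. FVB appears in the strain name of the CreER line alone, so genotype and strain background cannot be told apart. Tamoxifen was given for 5 days in weeks 1 and 5 according to the deposited protocol, which names no genotype. It stands in the treatment labels of the KO samples only, while the methods of the study give it to both genotypes, as a single course ahead of the experiments, so the sources differ on its timing. The labels do not say how many animals a library holds.

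Leucine, isoleucine and valine are taken up by adipocytes and broken down in mitochondria. The mitochondrial aminotransferase BCAT2 removes the amino group, and the branched-chain ketoacid dehydrogenase (BCKDH) complex then commits the ketoacids to oxidation. A kinase, BCKDK, turns the complex off by phosphorylation and a phosphatase, PPM1K, turns it on. Downstream, leucine carbon passes through isovaleryl-CoA dehydrogenase (IVD) and methylcrotonoyl-CoA carboxylase (MCC) toward acetyl-CoA and ketone bodies, while isoleucine and valine carbon reaches propionyl-CoA carboxylase (PCC) and enters the citric acid cycle. In adipose tissue these genes are known as a feature of mature adipocytes, and they supply acetyl-CoA for lipid synthesis.

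The libraries held 47185990 to 73167755 counts each (median 63334598). Levels are in CPM, which sets each count relative to the total of its library, scaled by TMM, a method that corrects for differences in RNA composition, and are given per kilobase of exon where genes are compared. Gja1 itself was at 73.8, 76.8 and 83.6 CPM in WT mice on NCD and 65.8, 68.1 and 68.8 in those on HFD. In KO mice it was at 48.9, 67.1 and 149.8 CPM on NCD and 65.7, 67.2 and 96.8 on HFD, each group in rising order. No Gja1 difference between diets or genotypes passed (adjusted p = 0.66 to 0.889, edgeR), so these counts do not show the deletion. By qPCR, the study reported effects of genotype and diet on Gja1 in whole gWAT. It checked the deletion by qPCR of macrophages isolated from the tissue. The tissue label was borne out by adipocyte markers, with 13723 to 23632 summed CPM of 8 genes per library, Adipoq and Plin1 among them. Libraries that stand apart hold transcripts of other organs. The sum of 8 seminal vesicle genes was 101385, 116707 and 21600.5 CPM in WT-NCD 1, 2 and 3 and at most 15.7 CPM in the other libraries. Albumin (Alb), a liver transcript, was at 383 CPM in KO-NCD 2 and 1045 CPM in KO-HFD 2, against 2.66 to 153 CPM elsewhere. KO-HFD 1 and 3 held 92.4 and 153 CPM of it, and WT-HFD 1, 2 and 4 held 33.0, 3.14 and 2.66 CPM. These groups did not overlap, though Alb did not pass (adjusted p = 0.0688, edgeR). Of 7 liver genes, 2 were called higher and 0 lower in KO-HFD than in WT-HFD. Serpina1a, 1 of these 2, was at 34.2 to 86.5 CPM and 1.56 to 5.29 CPM (adjusted p = 0.00391, edgeR). Comparisons with WT-NCD are also given without WT-NCD 1 and WT-NCD 2. That leaves WT-NCD 3 alone, itself with these transcripts, and its spread is assumed to be that of the other groups. Comparisons with KO groups are also given without KO-NCD 2 and KO-HFD 2.

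In WT mice, all 10 genes were lower on HFD than on NCD. The median log2 fold change was -1.57, from -1.98 for Mccc1 to -0.61 for Bckdhb, and the adjusted p ranged from 5.33e-05 to 0.0123 (edgeR's quasi-likelihood test with Benjamini-Hochberg adjustment over all genes tested). Over all 16352 genes the median was 0.0, and 18.4% were called lower in this comparison. In none of the 10 genes did the 3 WT-HFD libraries overlap with the 3 WT-NCD libraries, against 24.6% of all genes that were lower without overlap. In KO mice, 0 of the 10 genes passed between HFD and NCD with edgeR or with DESeq2's Wald test, where 0.0306% of all genes (5 genes) passed in either direction in edgeR and 1.9% (316 genes) with the Wald test. The count was also 0 at a fold over 1.5 and an unadjusted p under 0.05, which 4.18% of all genes (684 genes) passed. The median log2 fold change there was -0.12, and 1 of the 10 genes, Mccc1, had an unadjusted p under 0.05.

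**Figure D1:**
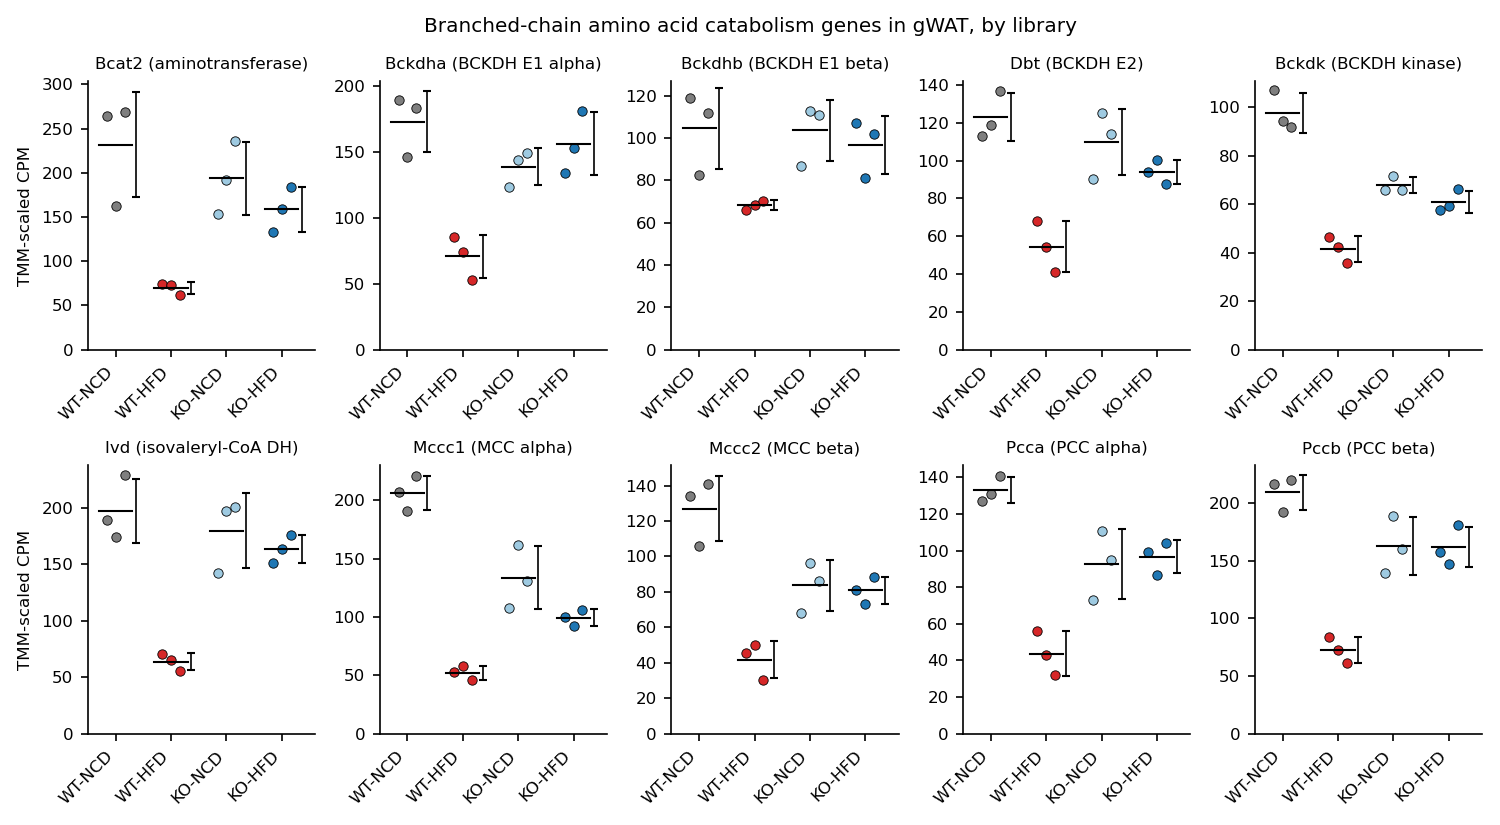
Level of each of the 10 genes (y axis, TMM-scaled CPM, from 0) in the 12 libraries (points) by group (x axis), with the group mean (line) and SD of 3 libraries (bar). The WT-HFD points of all 10 genes lie below those of the other 3 groups, with 70.4 and 81.3 CPM as the nearest points for Bckdhb.

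Bcat2 (Entrez Gene ID 12036) lies at chr7:45568967-45589710 (GRCm38) and encodes the aminotransferase of the first step. Its level was 264, 163 and 269 CPM in WT-NCD 1, 2 and 3 and 73.8, 73.6 and 62.2 CPM in WT-HFD 1, 2 and 4. In KO-NCD and KO-HFD 1, 2 and 3 it was 153, 192 and 236 CPM and 133, 159 and 184 CPM, and values of the other genes follow the same order of libraries. Every WT-HFD library was thus below every other library, while the KO-NCD and KO-HFD ranges overlapped. Bcat2 fell by 1.73 on the log2 scale in WT mice (SE 0.22, adjusted p = 0.000283, edgeR), which is 3.32-fold lower, and its difference in KO mice was -0.28 (95% interval -0.76 to 0.19, adjusted p = 0.735). Per kilobase it had the highest mean level of the 10 genes in WT-NCD, at 93.2 ± 23.9 CPM per kb (SD, n = 3), and Bckdha at 91.0 ± 12.1 and Pccb at 90.2 ± 6.34 did not differ from it beyond this spread. Bcat1, the cytosolic aminotransferase that is not a member, was at 2.1 to 2.96 CPM in WT-NCD and 7.15 to 8.71 CPM in WT-HFD. This difference, without overlap, was 1.6 on the log2 scale (95% interval 0.23 to 2.96) and did not pass (adjusted p = 0.0657, edgeR). Bcat1 was at 2.01 to 11.7 CPM in the KO libraries and did not pass in the other comparisons.

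The BCKDH complex is built from E1 (alpha subunit Bckdha, ID 12039, chr7:25629852-25658782, and beta subunit Bckdhb, ID 12040, chr9:83925111-84124240), E2 (Dbt, ID 13171, chr3:116513070-116549981) and the E3 subunit Dld, which is shared with other dehydrogenases. Bckdha was at 189, 146 and 183 CPM in WT mice on NCD, 85.3, 73.8 and 53.1 in those on HFD, 123, 144 and 149 in KO mice on NCD and 134, 153 and 181 in those on HFD. It fell 2.44-fold in WT mice (log2 -1.29, SE 0.18, adjusted p = 0.000544). In KO mice its mean was 156 ± 23.6 CPM on HFD and 138 ± 13.9 on NCD (SD, n = 3), a log2 difference of 0.17 that did not pass (adjusted p = 0.822). Bckdha was the member with the highest value in that comparison.

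Dbt, which carries the lipoyl arm of the complex, was at 113, 119 and 137 CPM in WT mice on NCD, 67.9, 54.5 and 41.0 in those on HFD, 90.4, 125 and 114 in KO mice on NCD and 93.7, 100.3 and 87.8 in those on HFD. It fell 2.26-fold in WT mice (log2 -1.18, SE 0.18, adjusted p = 0.000764). Bckdhb was at 119, 82.6 and 112 CPM in WT mice on NCD, 66.1, 68.6 and 70.4 in those on HFD, 86.9, 113 and 111 in KO mice on NCD and 107, 81.3 and 102 in those on HFD. WT-NCD 2 was the low point of its group, yet the WT groups did not overlap. Bckdhb fell 1.53-fold in WT mice (log2 -0.61, SE 0.16, adjusted p = 0.0123), and this 95% interval, -0.96 to -0.26, overlapped with that of Bckdha, -1.70 to -0.88. The shared subunit Dld fell by 1.09 (SE 0.14, adjusted p = 0.000366).

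Within a library, the ratio of Bckdhb to Bckdha does not depend on scaling. In counts per kilobase it was 0.741, 0.664 and 0.721 in WT-NCD and 0.912, 1.09 and 1.56 in WT-HFD, without overlap. The KO groups, at 0.834 to 0.925 on NCD and 0.627 to 0.941 on HFD, overlapped. WT-HFD 4, with the lowest Bckdha of all libraries, had the highest ratio. No test was run on this ratio. Dbt to Bckdha was close in the WT groups, with a mean of 0.415 ± 0.063 on NCD and 0.443 ± 0.0166 on HFD (SD, n = 3). In KO mice it was 0.424, 0.501 and 0.442 on NCD and 0.402, 0.378 and 0.279 on HFD, so the HFD libraries lay below the NCD libraries, as they did for Bckdk to Bckdha.

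Bckdk (ID 12041, chr7:127904073-127909664), the kinase that holds the complex inactive, was lower on HFD in WT mice together with the subunits. It was at 107, 94.1 and 91.8 CPM in WT mice on NCD, 46.3, 42.5 and 35.9 in those on HFD, 65.8, 71.6 and 66.0 in KO mice on NCD and 57.6, 59.1 and 66.1 in those on HFD. The groups fell into an order of WT-NCD above both KO groups above WT-HFD, and only KO-NCD and KO-HFD overlapped. Bckdk fell 2.35-fold in WT mice (log2 -1.23, SE 0.11, adjusted p = 7.8e-05). Per kilobase it had the lowest mean level of the 10 genes in WT-NCD, at 28.0 ± 2.36 CPM per kb (SD, n = 3).

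The phosphatase Ppm1k, which opposes BCKDK, had 13.0, 13.4 and 17.3 CPM in the WT-NCD libraries and 16.2, 16.7 and 16.0 CPM in the WT-HFD libraries. The groups overlapped and the log2 difference was 0.16 (95% interval -0.14 to 0.46, adjusted p = 0.392). It did not pass in the other comparisons. The ratio of Bckdk to Ppm1k in counts per kilobase was 13.1, 11.1 and 8.42 in WT-NCD and 4.54, 4.05 and 3.57 in WT-HFD, with 4.97 to 6.39 in KO-NCD and 5.45 to 6.79 in KO-HFD. WT-NCD lay above the KO libraries and WT-HFD below them.

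The ratio of Bckdk to Bckdha, kinase to target subunit, overlapped between the diets in WT mice. It was 0.308, 0.349 and 0.272 in WT-NCD, 0.295, 0.313 and 0.368 in WT-HFD, 0.292, 0.271 and 0.241 in KO-NCD and 0.233, 0.21 and 0.198 in KO-HFD. Every KO-HFD library was below every library of the other groups. The mean log2 ratio differed by 0.07 between WT-HFD and WT-NCD (exact permutation test, two-sided, p = 0.6, adjusted over 4 tests 0.6). It differed by -0.32 between KO-HFD and KO-NCD and by -0.60 between KO-HFD and WT-HFD, each with the smallest p that 3 against 3 libraries allow (exact p = 0.1, adjusted 0.2). The difference between KO-NCD and WT-NCD was -0.21 (exact p = 0.2, adjusted 0.267), so 0 of the 4 differences could be called. The value for KO-HFD against WT-HFD was -0.26 with the mean of Bckdha, Bckdhb and Dbt in place of Bckdha, and that for KO-HFD against KO-NCD was -0.11.

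**Figure D2:**
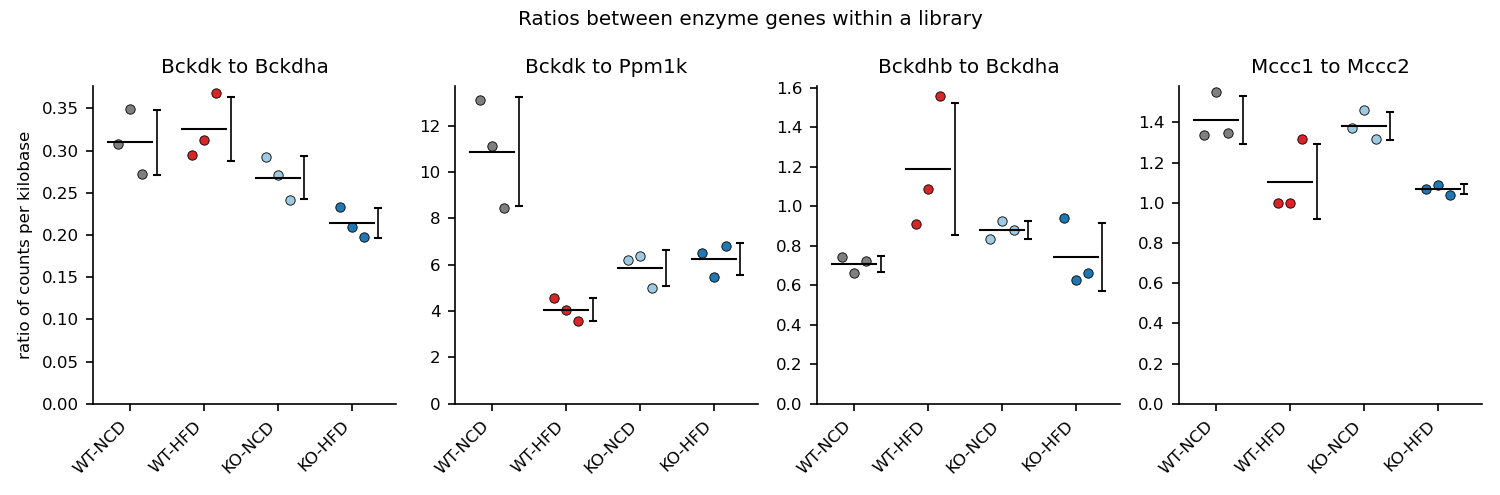
Ratios of counts per kilobase between pairs of enzyme genes within each library (points; y axes from 0), by group, with the mean (line) and SD of 3 libraries (bar). Bckdk to Ppm1k was 8.42 to 13.1 in WT-NCD and 3.57 to 4.54 in WT-HFD, while Bckdk to Bckdha was lowest in KO-HFD.

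On the leucine branch, Ivd (ID 56357, chr2:118861959-118882909) and both MCC subunits were lower on HFD in WT mice. Ivd was at 189, 174 and 229 CPM in WT mice on NCD, 70.5, 65.1 and 55.8 in those on HFD, 142, 197 and 201 in KO mice on NCD and 151, 164 and 176 in those on HFD. It fell 3.09-fold in WT mice (log2 -1.63, SE 0.16, adjusted p = 9.48e-05), and the KO-HFD libraries lay inside the KO-NCD range.

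Mccc1 (ID 72039, chr3:35956292-36000694), the biotin-carrying alpha subunit of MCC, was at 207, 191 and 220.5 CPM in WT mice on NCD, 52.6, 57.7 and 46.1 in those on HFD, 108, 162 and 131 in KO mice on NCD and 100.2, 91.9 and 106 in those on HFD. Its 4 groups did not overlap at any point, in the order WT-NCD, KO-NCD, KO-HFD and WT-HFD. Mccc1 fell 3.95-fold in WT mice (log2 -1.98, SE 0.15, adjusted p = 5.33e-05), the largest fall among the 10 genes. In KO mice its difference was -0.43 (95% interval -0.75 to -0.11), with an unadjusted p of 0.0134 and an adjusted p of 0.375 in edgeR.

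Mccc2 (ID 78038, chr13:99948532-100015639), the beta subunit, was at 134, 106 and 141 CPM in WT mice on NCD, 45.3, 50.0 and 30.1 in those on HFD, 68.3, 96.3 and 86.2 in KO mice on NCD and 80.9, 73.1 and 88.5 in those on HFD. It fell 3.03-fold in WT mice (log2 -1.60, SE 0.20, adjusted p = 0.000257). The ratio of Mccc1 to Mccc2 was 1.34 to 1.55 in WT-NCD and 1.32 to 1.46 in KO-NCD. On HFD it was 1.00, 0.997 and 1.32 in WT mice and 1.07, 1.09 and 1.04 in KO mice. The HFD libraries were therefore below the NCD libraries of their genotype, with WT-HFD 4 close to WT-NCD 1, and no test was run on this ratio.

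PCC, the biotin enzyme that carboxylates propionyl-CoA, was lower on HFD in WT mice in both subunits. Pcca (ID 110821, chr14:122484365-122889944) was at 127, 131 and 141 CPM in WT mice on NCD, 56.3, 42.7 and 32.2 in those on HFD, 72.9, 110.5 and 94.6 in KO mice on NCD and 99.2, 86.5 and 104 in those on HFD. It fell 3.04-fold in WT mice (log2 -1.60, SE 0.20, adjusted p = 0.000268). Pccb (ID 66904, chr9:100982032-101034940) was at 216, 192 and 219.6 CPM in WT mice on NCD, 83.4, 72.4 and 61.4 in those on HFD, 139, 189 and 159.8 in KO mice on NCD and 157, 147 and 181 in those on HFD. It fell 2.89-fold in WT mice (log2 -1.53, SE 0.15, adjusted p = 9.21e-05). For both genes the KO diets overlapped, and the mean ratio of Pcca to Pccb stayed between 0.508 and 0.569 over the 4 groups.

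On HFD, 9 of the 10 genes were higher in KO than in WT mice, where 7.99% of all genes were called higher. The log2 fold changes had a median of 1.05, against 0.02 over all genes, and ran from 0.50 for Bckdhb to 1.36 for Ivd. Ivd was 2.56-fold higher (SE 0.16 on the log2 scale, adjusted p = 0.00156), Bcat2 2.27-fold (SE 0.22, adjusted p = 0.00765) and Bckdk 1.47-fold (SE 0.11, adjusted p = 0.0109). Bckdhb did not pass, at 1.42-fold (adjusted p = 0.0556, edgeR). In all 10 genes the 3 KO-HFD libraries lay above the 3 WT-HFD libraries, as in 19.3% of all genes. The call for Dbt (log2 0.79, adjusted p = 0.0175, edgeR) was lost without WT-HFD 4 (0.62, adjusted p = 0.0542). It was also lost without KO-HFD 2, the library with the most albumin (0.74, adjusted p = 0.0642). Without KO-NCD 2 and KO-HFD 2 together, 8 genes passed and Dbt did not (0.74, adjusted p = 0.0625). The other 8 calls remained with any one of the 6 libraries left out. With WT-HFD in both, this comparison and that of WT-HFD with WT-NCD are not independent. Alb was higher in every KO-HFD library than in every WT-HFD library, so genotype on HFD and liver transcripts cannot be told apart.

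The diet by genotype interaction, which tests whether the diet difference in KO mice departs from that in WT mice, passed for 9 of the 10 genes, where 9.12% of all genes had a positive interaction that passed. The median of the interaction was 1.47, against 0.01 over all genes, and the highest value was that of Pcca at 1.66 (SE 0.28, adjusted p = 0.005). Mccc1 had 1.55 (SE 0.21, adjusted p = 0.00292) and Bckdk 1.08 (SE 0.16, adjusted p = 0.00342). Bckdhb did not pass, at 0.51 (95% interval 0.02 to 1.01, adjusted p = 0.139), and passed without WT-NCD 2 (0.68, adjusted p = 0.0432). The value for Dbt, 0.95 (adjusted p = 0.0269), did not pass without WT-NCD 3, WT-HFD 2, KO-NCD 1, KO-NCD 3, KO-HFD 1 or KO-HFD 2, with adjusted p of 0.062, 0.0525, 0.0643, 0.0537, 0.0513 and 0.0594. Without WT-NCD 1 and WT-NCD 2 together, 8 genes passed and Dbt did not (1.11, adjusted p = 0.0832), and without KO-NCD 2 and KO-HFD 2 together the same 9 passed.

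**Figure D3:**
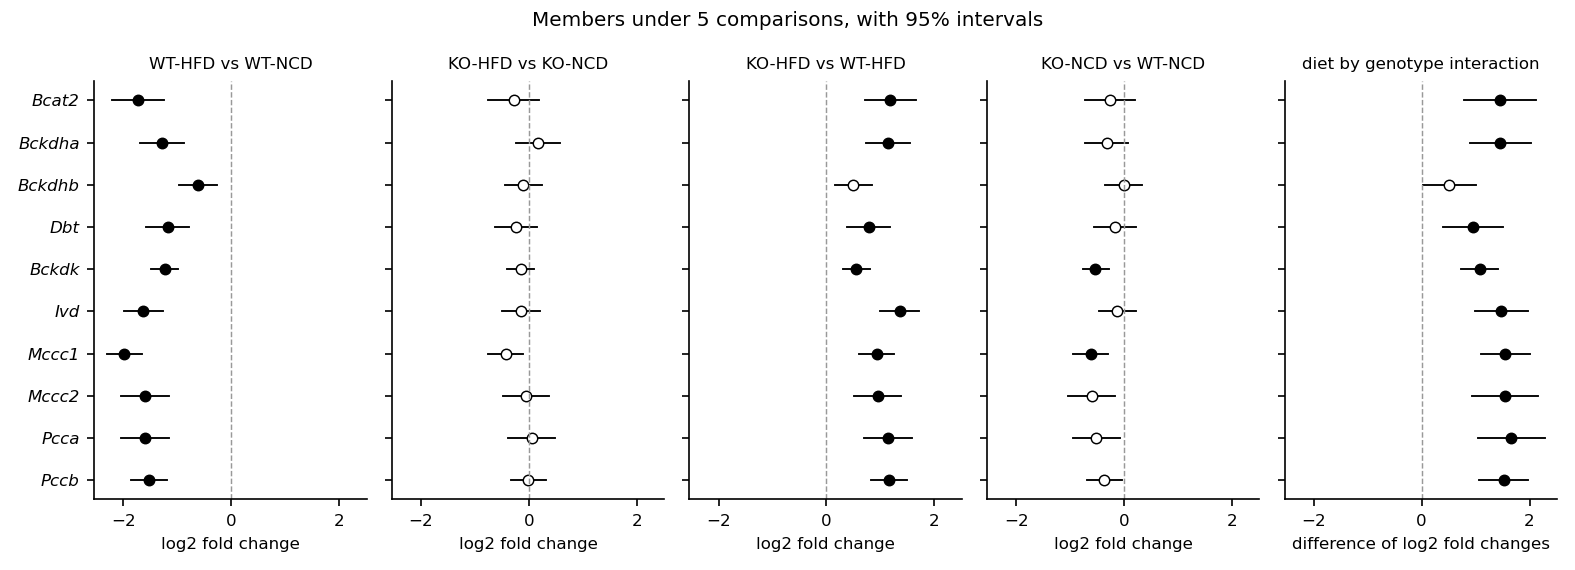
Log2 fold change (x axis; for the interaction, the difference of log2 fold changes) of each gene (y axis) in 5 comparisons, with 95% intervals (lines), filled where the adjusted p was under 0.05. All 10 genes are filled and negative for HFD in WT mice, 0 are filled for HFD in KO mice, and 9 are filled and positive for KO against WT on HFD and for the interaction.

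On NCD, 2 of the 10 genes were lower in KO than in WT mice, where 7.91% of all genes were called lower. Bckdk was 1.44-fold lower (log2 -0.53, SE 0.11, adjusted p = 0.0172) and Mccc1 1.54-fold lower (log2 -0.62, SE 0.15, adjusted p = 0.0246). The median of the 10 genes was -0.34, against 0.06 over all genes, and 5 of them, the 2 called and Mccc2, Pcca and Pccb, were lower without overlap, as in 19.2% of all genes. Both calls were lost without WT-NCD 1 (adjusted p = 0.0557 for Bckdk and 0.0677 for Mccc1), KO-NCD 1 (0.0652 and 0.0795) or KO-NCD 3 (0.0672 and 0.0812), and that for Mccc1 also without WT-NCD 3 (0.0661). With WT-NCD 3 as the only WT-NCD library, the values were -0.46 for Bckdk (adjusted p = 0.208) and -0.74 for Mccc1 (adjusted p = 0.168). Both passed without KO-NCD 2 and KO-HFD 2. Bckdhb was alike on average, at 104 ± 14.5 CPM in KO-NCD and 105 ± 19.3 CPM in WT-NCD (SD, n = 3), with a 95% interval of the log2 difference of -0.36 to 0.34.

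Each of the 3 WT-NCD libraries held seminal vesicle transcripts and no WT-HFD library did to a like degree. In WT mice the diet and these transcripts therefore cannot be told apart. The KO-NCD libraries held 0.0902 to 0.436 summed CPM of the 8 seminal vesicle genes. Genotype on NCD, and the interaction, which uses WT-NCD, thus also cannot be told apart from these transcripts. With HFD in WT mice, all 10 genes were called lower with any 1 of the 6 libraries left out. With WT-NCD 3 alone against WT-HFD, the log2 fold changes ran from -2.08 to -0.72 (adjusted p = 0.00234 to 0.0364, edgeR). WT-NCD 2, with the most of these transcripts, was the lowest of its group for 7 of the 10 genes. In KO mice, 0 of the 10 passed with KO-NCD 2 and KO-HFD 2 left out. KO-NCD 1 was the lowest of its group for all 10 genes, and WT-HFD 4 for 9.

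Some marker lists moved with the WT difference, while 1 of 6 endothelial and 2 of 8 adipose progenitor markers were called, all higher with HFD. The 8 adipocyte markers summed to 17252 to 23632 CPM on NCD and 13723 to 18064 CPM on HFD in WT mice, and 5 of the 8 were called lower with HFD in WT mice, with a median log2 fold change of -0.77 over the list. The 8 macrophage markers summed to 958 to 1052 CPM in the WT-NCD libraries, 2552 to 4178 in WT-HFD, 1143 to 1816 in KO-NCD and 974 to 2198 in KO-HFD, and 7 of the 8 were called higher with HFD in WT mice (median 2.28). Of 10 genes for mitochondrial content, such as citrate synthase (Cs) and Vdac1, 9 were called lower with HFD in WT mice (median -1.05) and 0 in KO mice (median -0.02). On HFD, 6 of the 8 macrophage markers were called lower in KO than in WT mice. In the same comparison 3 of the 8 adipocyte markers and 5 of the 10 mitochondrial genes were called higher. The interaction was called negative for 7 macrophage markers and positive for 3 adipocyte markers and 8 mitochondrial genes. In whole tissue, fewer cells of a type and less RNA per cell cannot be told apart. The part of these markers in the diet, genotype and interaction results was not tested.

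The summed level of the 10 genes was also set against these lists. Their summed CPM was 7.04, 8.12 and 7.50% of the adipocyte marker sum in WT-NCD 1, 2 and 3, and 3.58, 3.39 and 3.56% in WT-HFD 1, 2 and 4. In KO mice it was 6.85, 7.70 and 7.31% on NCD and 5.48, 5.28 and 5.60% on HFD. By this measure the HFD libraries lay below the NCD libraries in both genotypes. In KO mice the summed CPM of the 10 genes overlapped between the diets, at 1049 to 1400 on NCD and 1113 to 1276 on HFD. The adipocyte marker sum did not overlap there, at 15314 to 18466 CPM on NCD and 20319 to 22779.9 CPM on HFD. The marker with the highest level was Fabp4, a fatty acid binding protein, at a mean of 9169.8 CPM in WT-NCD and 8370 CPM in WT-HFD (log2 -0.13, adjusted p = 0.668), so a large part of this sum did not pass the test. Leptin (Lep) was at 3126 CPM in WT-HFD 1. In KO mice, 0 of the 8 adipocyte markers were called between the diets. Fabp4 had a mean of 7954 CPM in KO-NCD and 10571 CPM in KO-HFD, and Lep had 1019 and 2062 CPM. Plin1 (log2 -0.24) and Pparg (log2 -0.30) went the other way. The lower share in KO-HFD thus came with a higher marker sum in which no single marker passed. With HFD in WT mice, 5 of the 8 adipocyte markers fell within the range of the 10 genes on the log2 scale. These were the lipid droplet protein Plin1 (by 1.26), Pparg (1.06), the lipase Lipe (1.05), Cidec (0.84) and Adipoq (0.71). Outside that range were Fabp4, Pnpla2 (log2 -0.15, adjusted p = 0.513, edgeR) and Lep, which went the other way (0.78, adjusted p = 0.203). Relative to the mitochondrial genes, the sum was 30.2 to 34.4% in WT-NCD and 22.6 to 26.3% in WT-HFD, without overlap. The KO groups overlapped there, at 34.6 to 39.5% on NCD and 34.1 to 36.7% on HFD. These shares are descriptions, with no test.

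**Figure D4:**
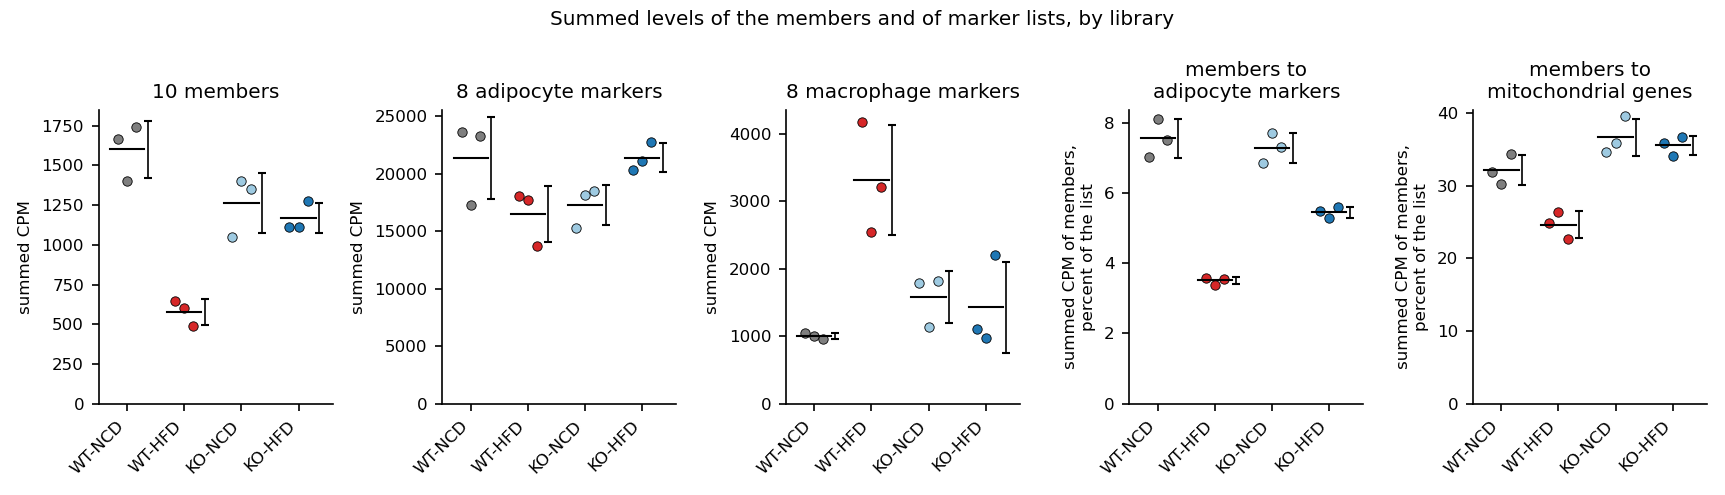
Summed TMM-scaled CPM of the 10 genes, of 8 adipocyte markers and of 8 macrophage markers, and the sum of the 10 genes as a percent of the adipocyte markers and of 10 mitochondrial genes (y axes from 0), in each library (points) with the group mean (line) and SD of 3 libraries (bar). The share of the adipocyte markers was 3.39 to 3.58% in WT-HFD and 5.28 to 5.60% in KO-HFD, against 6.85 to 8.12% in the NCD libraries.

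The rest of the pathway was read from a list of 26 further genes, all of which passed the filter. With HFD in WT mice, 19 were lower and 2 higher, with a median log2 fold change of -0.76, where 18.4% of all genes were called lower. Echs1, an enoyl-CoA hydratase of the isoleucine and valine branches, fell by 1.86 (SE 0.19, adjusted p = 9.88e-05), and Klf15, a transcription factor known to drive amino acid catabolism genes, fell by 2.07 (SE 0.25, adjusted p = 0.000226). Acadsb, the acyl-CoA dehydrogenase of the isoleucine branch, fell by 1.08 (SE 0.12, adjusted p = 0.000167), Acat1, the thiolase that yields acetyl-CoA, by 1.01 (SE 0.13, adjusted p = 0.000279), and Hibadh of the valine branch by 1.00 (SE 0.13, adjusted p = 0.000324). Slc25a44, the mitochondrial carrier of branched-chain amino acids, fell by 0.84 (SE 0.12, adjusted p = 0.000484). The 2 that rose were transporters of neutral amino acids at the cell surface, Slc7a8 (log2 1.99, SE 0.27, adjusted p = 0.00038) and Slc43a2 (log2 1.42, SE 0.18, adjusted p = 0.000296). Ppm1k, Bcat1, Slc3a2, Slc43a1 and the biotin ligase Hlcs did not pass.

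With HFD in KO mice, 0 of these 26 genes passed, where 0.0306% of all genes did. Of the 26, 2, Slc25a44 and Slc43a1, had an unadjusted p under 0.05 in edgeR. On HFD, 13 were higher in KO than in WT mice, where 7.99% of all genes were called higher. Only 1, Slc43a2, was lower (log2 -1.13, SE 0.18, adjusted p = 0.0045, edgeR). Klf15 was higher by 1.19 (SE 0.25, adjusted p = 0.0119), Echs1 by 0.99 (SE 0.18, adjusted p = 0.00772), Acat1 by 0.87 (SE 0.13, adjusted p = 0.00345), Acadsb by 0.82 (adjusted p = 0.00357) and Dld by 0.56 (SE 0.14, adjusted p = 0.0263). Auh, the hydratase of the leucine branch, was higher by 0.58 (adjusted p = 0.00867), Hsd17b10, a dehydrogenase of the isoleucine branch, by 0.96 (adjusted p = 0.00913) and Slc25a44 by 0.43 (adjusted p = 0.0343). The interaction passed for 17, of which 15 were positive and 2, Slc7a8 and Slc43a2, negative, where it was called positive for 9.12% of all genes. The smallest adjusted p values were those of Slc43a2 (-1.67, 0.00367), Echs1 (1.59, 0.0042), Acat1 (1.09, 0.00453), Acadsb (0.93, 0.00673), Hibadh (0.95, 0.00761) and Dld (1.02, 0.00857). On NCD, 3 of the 26 were lower in KO mice, where 7.91% of all genes were called lower. These were Mmadhc (log2 -0.50) and Mmab (-0.43) of cobalamin handling and Hibadh (-0.44). Another 2 were higher, Slc7a8 (log2 1.00, adjusted p = 0.0329, edgeR) and Hlcs (log2 0.75, adjusted p = 0.0276). The share of all genes called higher on NCD is not given here. The list was drawn up with earlier results of these data known.

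**Figure D5:**
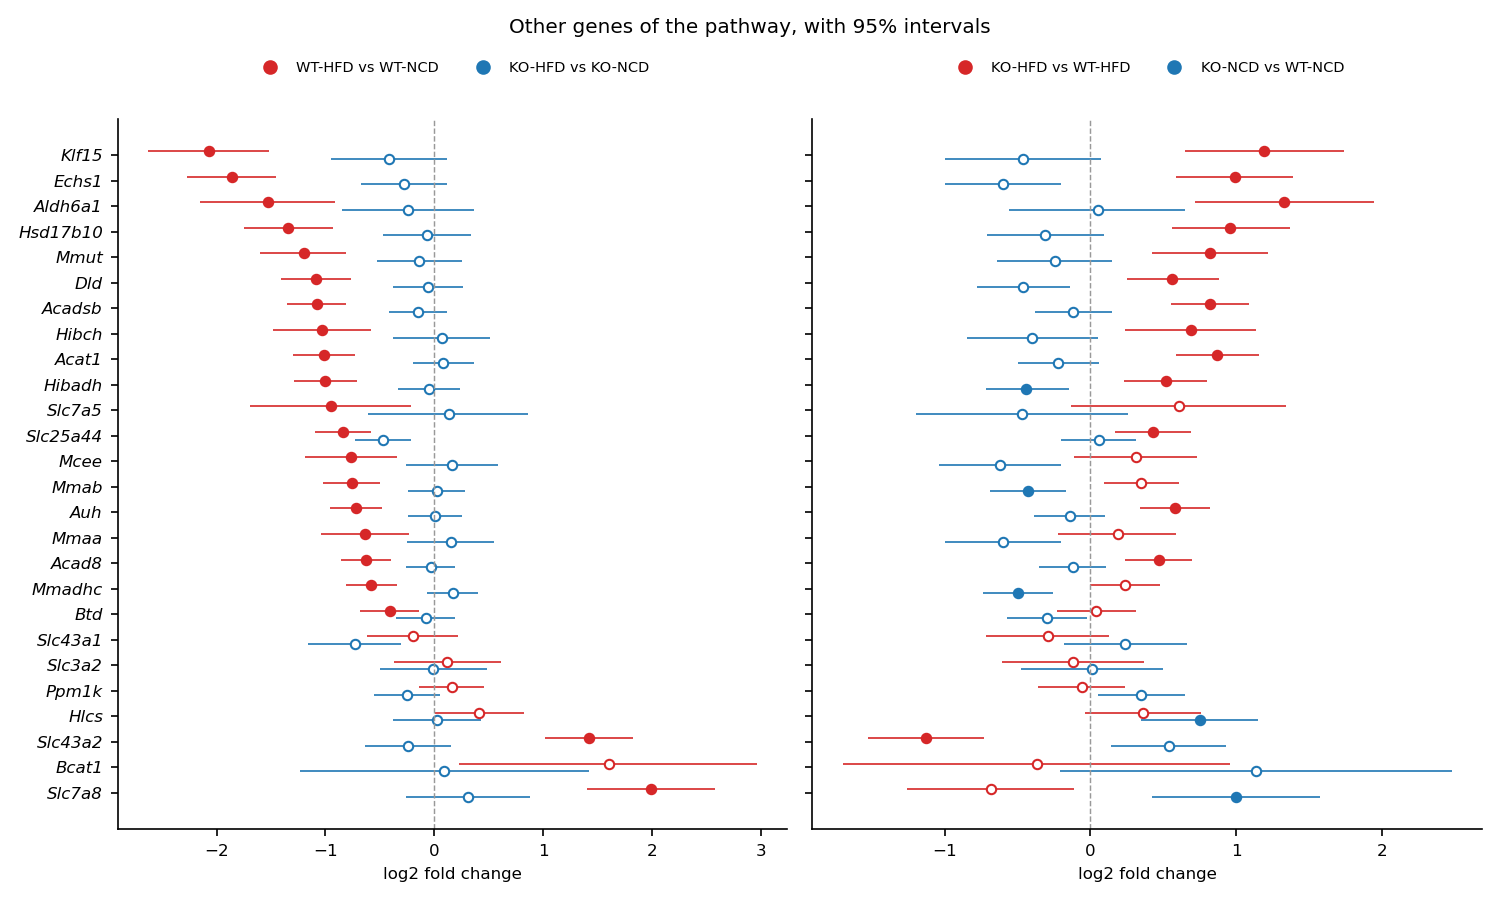
Log2 fold change (x axis) with 95% interval (lines) of 26 further genes of the pathway (y axis, ordered by the WT diet comparison), filled where the adjusted p was under 0.05. The left panel gives HFD against NCD in WT (red) and KO mice (blue), and the right panel gives KO against WT on HFD (red) and NCD (blue), with 21 filled red points on the left and 14 on the right.

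The 3 biotin enzymes outside the pathway were also lower on HFD in WT mice. Pyruvate carboxylase (Pcx) was at 2622, 2770.4 and 3150.4 CPM in the WT-NCD libraries, and WT-HFD had 392, 331 and 212 CPM. With the acetyl-CoA carboxylases Acaca and Acacb, the 3 genes had a median log2 fold change of -3.19 with HFD in WT mice. All 3 were also called lower in KO than in WT mice on NCD, with a median of -1.41. Of 12 genes of the related pyruvate and oxoglutarate dehydrogenase complexes, 8 were called lower and 1 higher with HFD in WT mice, with a median of -0.79. The interaction was called positive for all 3 biotin enzymes, with a median of 2.71. Of the 12 dehydrogenase genes it was called positive for 6 and negative for 1. The difference between these lists and the members was not tested.

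Across the 12 libraries the 10 genes varied together. The 45 pairs had Pearson's r of log2 CPM from 0.729 to 0.985, with a median of 0.93, and from 0.119 to 0.916, with a median of 0.68, once group means were removed. Pcca with Pccb was the closest pair and Bckdhb with Bckdk the least close over the 12 libraries. Bckdhb had the lowest median r with the others, 0.809, and Pccb the highest, 0.95. The libraries share groups, depth and composition, so these values are a description. All tested genes outside the 10, the 26 further pathway genes included, were ranked by how like their log2 CPM was to the mean z-score of the 10 genes. Over the 12 libraries the 5 most like it were Cldn24 (r = 0.988), Cldn22 (0.987), Cfl2 (0.986), Gsta3 (0.985) and Immt (0.984). Cldn22 and Cldn24 are neighbouring claudin paralogues, so reads may be shared between them, and Cldn24 had a mean of 0.0613 CPM in WT-HFD. Cfl2 encodes a cofilin, Gsta3 a glutathione transferase and Immt a protein of the mitochondrial inner membrane.

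Promoter sequences are shown for 4 genes, to set the member that fell most in WT mice (Mccc1) beside the one that fell least (Bckdhb), and the kinase Bckdk, which fell, beside the phosphatase Ppm1k, which did not pass. Each runs 5′ to 3′ on the strand of the gene, from 250 bases before to 50 bases after a transcript start, as RefSeq gives it for GRCm38.p6. The windows of 9 of the 10 members were found, all but Dbt, with 12 windows in all. Capitals mark matches on either strand to 5 motifs. The CCAAT box was searched as CCAAT, which reads ATTGG on the other strand. The GC box was searched as GGGCGG, which can stand as CCGCCC. The E-box was taken as CACGTG, the element of oestrogen-related receptors as TCAAGGTCA, and the core of the NRF1 site as TGCGCA. No motif of this set contains another.
Mccc1 (chr3:36000629-36000928, minus strand): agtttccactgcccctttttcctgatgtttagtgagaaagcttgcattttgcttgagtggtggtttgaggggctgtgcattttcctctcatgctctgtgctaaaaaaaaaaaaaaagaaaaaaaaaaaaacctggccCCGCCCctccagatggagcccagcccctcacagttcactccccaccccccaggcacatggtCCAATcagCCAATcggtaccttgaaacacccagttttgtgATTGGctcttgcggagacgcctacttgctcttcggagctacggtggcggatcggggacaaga
Bckdhb (chr9:83924887-83925186, plus strand): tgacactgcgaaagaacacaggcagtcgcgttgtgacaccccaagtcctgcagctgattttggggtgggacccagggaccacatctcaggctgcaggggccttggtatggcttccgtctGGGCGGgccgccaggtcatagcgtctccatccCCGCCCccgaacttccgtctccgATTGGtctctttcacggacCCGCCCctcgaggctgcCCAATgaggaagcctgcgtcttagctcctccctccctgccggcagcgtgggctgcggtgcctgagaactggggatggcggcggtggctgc
Bckdk (chr7:127903823-127904122, plus strand): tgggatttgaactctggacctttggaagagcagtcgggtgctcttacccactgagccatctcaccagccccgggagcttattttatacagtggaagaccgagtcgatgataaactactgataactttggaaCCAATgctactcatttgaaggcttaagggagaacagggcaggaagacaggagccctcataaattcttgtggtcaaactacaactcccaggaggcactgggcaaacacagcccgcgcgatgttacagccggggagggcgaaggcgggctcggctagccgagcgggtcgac
Ppm1k (chr6:57535438-57535737, minus strand): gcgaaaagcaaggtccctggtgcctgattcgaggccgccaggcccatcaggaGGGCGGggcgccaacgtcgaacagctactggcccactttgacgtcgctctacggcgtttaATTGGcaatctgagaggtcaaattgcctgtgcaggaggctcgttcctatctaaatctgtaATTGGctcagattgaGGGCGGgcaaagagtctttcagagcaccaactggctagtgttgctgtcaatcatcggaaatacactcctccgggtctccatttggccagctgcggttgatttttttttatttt
The Mccc1 window held 3 CCAAT boxes and 1 GC box, the Bckdhb window 2 and 3, the Bckdk window 1 and 0, and the Ppm1k window 2 and 2. The gene that fell most and the gene that fell least in WT mice thus both held CCAAT and GC boxes. Over the 12 member windows, 8 held a CCAAT box (windows of 6 members), against 37.4% of 32851 windows of all genes. A GC box was in 3, against 35.7%, an E-box in 1 (Mccc2), against 7.15%, and an NRF1 core in 1 (Pccb), against 7.76%. The oestrogen-related receptor element was in 0, against 0.423%. A match is a description of letters and not a site.

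Of the 10 genes, 4 overlap on the genome with a gene on the other strand that is in the count table, and the strand setting of the counting is not given in the sources used here. Over the 12 libraries, Bcat2 had 119961 counts and its antisense partner 0610005C13Rik 460, Mccc1 had 90635 and Mccc1os 421, Bckdha had 98106 and B3gnt8 5574, and Pcca had 67176 and Ggact 8049. These partners had fewer counts than the members. Whether reads of a shared stretch were counted for the wrong gene was not tested.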

How the data were processed

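RNA-seq of gWAT covered 12 libraries, 3 per group, grouped by the deposited labels. Per the labels a TruSeq Stranded mRNA kit was used, while the methods of the study name a TruSeq mRNA kit without the word stranded. Sequencing was on a NovaSeq instrument. The submitters' processing notes name bcl2fastq version 2.20.0, Trimmomatic, HISAT2 version 2.1.0 with mm10 and StringTie version 1.3.4d. The authors deposited raw counts per gene, which were used as they stand. The WT-HFD library here called 4 is named so in the table and matched a group but not a numbered sample.

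Entrez IDs were named from RefSeq and GENCODE (GRCm38), and 47 of 19792 had no symbol. The filter on low counts was filterByExpr with a minimum count of 10 and a minimum total of 15, and the genes it kept held 99.989% of the counts. Counts were scaled by TMM and fitted in edgeR version 4.0.16 (R version 4.3.3) with 1 mean per group, 8 residual degrees of freedom and a common dispersion of 0.115, and the quasi-likelihood test was applied with Benjamini-Hochberg adjustment over the 16352 genes. The fit was tested on simulated data. Intervals are 95%, and percent of genes called is over all genes tested. Correlations used log2 CPM with a prior count of 2. Ratios within a library used counts per kilobase of merged exons (counts plus 0.5 without length in an alternative) and exact permutation tests with 20 arrangements. Nothing says that the libraries are separate animals, so p-values measure the spread between libraries, which may be technical.

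The 10 members and all lists were chosen with earlier results of these data known. Named genes are the members, 6 fixed and the 6 smallest p of the 26 further genes per comparison, and the 5 of most similar pattern, while other genes were named after their values were seen. A further gene of the fixed list is not reported here. Alternatives were size factors of DESeq2 (version 1.42.0) in edgeR, its Wald test, no filter, the thresholds of the study (1.5-fold and an unadjusted p of 0.05), only the groups compared, the replicate number as a block, and leaving out libraries. Same-numbered KO-NCD and KO-HFD libraries deviated together from their group means, with correlations of 0.468, 0.699 and 0.195 for numbers 1, 2 and 3, and so were treated as paired in a blocked alternative. In the other pairs of groups the correlations ran from -0.309 to 0.301.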

Additional observations from a re-analysis of the deposited data

Results flagged for a closer look

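For 9 of the 10 genes the diet difference in KO mice departed from that in WT mice by the interaction test of edgeR. The differences of log2 fold changes were 1.45 for Bcat2, 1.46 for Bckdha, 0.95 for Dbt, 1.08 for Bckdk, 1.48 for Ivd, 1.55 for Mccc1, 1.55 for Mccc2, 1.66 for Pcca and 1.52 for Pccb, with adjusted p from 0.00292 to 0.0269. In each of these genes all 3 WT-HFD libraries were below all 3 WT-NCD libraries. The interaction uses the WT-NCD libraries, so it cannot be told apart from their seminal vesicle transcripts. With 3 libraries per group, no statistical search for outlying samples was made. The libraries left out in pairs were chosen by their seminal vesicle or liver transcripts.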

How the results depend on the processing

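The fall of all 10 genes with HFD in WT mice and the count of 0 in KO mice were the same under DESeq2 size factors, the DESeq2 Wald test, the thresholds of the study, no filter, only the groups compared and the removal of seminal vesicle genes. Over all single-gene values and alternatives, 679 kept their direction and their side of the threshold, 28 lost and 5 gained a call, and 18 changed sign, none of which had passed. KO-HFD against WT-HFD gave 9 calls, 8 to 9 with 1 library left out, and 4 with the replicate block over 12 libraries (Bcat2, Dbt, Bckdk, Mccc2 and Pcca lost). In that fit WT-HFD 4, the lone library of its number, has a term of its own and so drops out, and WT-HFD and KO-HFD libraries of the same number did not deviate together (-0.176 and -0.144). KO-NCD against WT-NCD gave 2 calls, 0 to 3 with 1 library left out, 1 with only the groups compared, 0 without WT-NCD 1 and WT-NCD 2, and 4 with the DESeq2 Wald test. The interaction gave 9 calls, 8 to 10 with 1 library left out. The replicate block, in the fit of 12 libraries or of the 6 KO libraries, changed no call in KO mice, left 9 of the 10 calls in WT mice (Bckdhb lost, adjusted p = 0.0688) and ended the interaction call of Dbt alone (0.76).

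Values that changed sign were all near 0. With 1 library left out, KO-HFD against KO-NCD ran from -0.21 to 0.01 for Bckdhb, -0.17 to 0.07 for Mccc2, -0.09 to 0.2 for Pcca and -0.11 to 0.11 for Pccb. Without KO-NCD 2 and KO-HFD 2 it was 0.08 for Bckdhb, 0.13 for Mccc2 and 0.18 for Pccb, and Pccb was at 0.0 with DESeq2 size factors or the Wald test and at 0.01 with the replicate block in KO libraries. KO-NCD against WT-NCD ran from -0.19 to 0.1 for Bckdhb and -0.24 to 0.02 for Ivd with 1 library left out, and was 0.0 for Bckdhb with the replicate block. The Bckdk to Bckdha difference moved from 0.07 to -0.20 in WT mice with the mean of 3 subunits as denominator and to -0.11 with the replicate block. That of KO-HFD against KO-NCD moved to -0.11 with 3 subunits, and that of KO-HFD against WT-HFD to -0.26 with 3 subunits and -0.46 with the block. The cause of these changes was not tested. In KO mice the 95% intervals of the diet difference lay between -0.76 and 0.57 on the log2 scale over the 10 genes, and that of Mccc1 (-0.75 to -0.11) did not hold 0, although it did not pass after adjustment (0.375).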
